A study of Mus musculus with 2 samples.

Results

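Lone Tcf1 peaks are peaks on the 19 mouse autosomes whose nearest other peak on the same chromosome lay more than 500 kb away, measured from edge to edge. There were 647 of them among 2667 autosomal peaks, or 24.3% (exact binomial 95% interval 22.6 to 25.9%), and among 2827 peaks in the list as a whole. The other 2020 autosomal peaks, each with a neighbour within 500 kb, served as the comparison. Members were chosen by spacing alone, and the spacing, width and score of a peak all come from the same peak calling, so the values below are a description and carry no test.

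The study mapped Tcf1 in CD8 T cells of wild-type C57BL/6 mice, taken from the spleen by negative selection, which leaves the wanted cells untouched. It held 2 libraries of chromatin immunoprecipitation and sequencing (ChIP-seq), 1 precipitated by a custom-made rabbit antiserum to Tcf1 and 1 by pre-immune rabbit serum as the control. The antiserum was unfractionated, and the control serum came from another antibody project. The sources used here give no age, sex or number of mice. The measurement was 1 list of peaks for the Tcf1 antiserum in mm9 coordinates, called strong peaks by its track line, in which every peak has 1 score. The depth of sequencing is unknown, and no peak had a replicate check. The identity of the cells could not be set against marker genes, because the list holds no expression values.

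Tcf1, the product of Tcf7, binds DNA through an HMG box and can do so with β-catenin, the coactivator of the Wnt pathway. In T cells it is known for its part in the commitment of thymocytes to the T lineage and in keeping naive and memory CD8 T cells able to renew themselves. Binding sites of such factors in lymphocytes often lie in groups around genes that the cell type uses, in promoters and in enhancers at a distance. A site with no neighbour is the other end of that range. A lone peak in this list is far from another listed strong peak. Weaker binding beside it would not be seen here.

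Lone peaks were narrower than the other autosomal peaks, at nearly the same median score. Their median width was 237 bp (95% interval of the median 229 to 243 bp, n = 647 peaks) against 295.5 bp (288 to 301 bp, n = 2020 peaks), a difference of -58.5 bp. Against only the 916 other peaks with no peak within 100 kb, a comparison added after seeing the data, the difference was -30 bp (237 against 267 bp). The intervals do not overlap, but they cover the spread over the peaks of 1 library only, take peaks as independent, and say nothing about variation between mice. Median scores were 11.21 for lone peaks (interval 11.15 to 11.21) and 11.11 for the others (10.94 to 11.21), so the intervals of the scores overlapped. Lone peaks lay on the 3 commonest scores of the list in 23.2% of cases, against 11.6% of the others. The lone median of 11.21 is itself 1 of these scores. Without them, a choice made after seeing the data, the median scores were 10.10 for lone and 10.57 for other peaks. The 3 scores lie at or above the median of both groups and hold more of the lone peaks, so this order follows in part from the choice.

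The shift in width ran through most of the distribution. The middle 50% of lone peaks spanned 204 to 321 bp, and that of the other peaks 220 to 381 bp. At the narrow end, 145 lone peaks (22.4%) were up to 200 bp wide, against 267 of the others (13.2%). Widths over 200 and up to 250 bp took in 217 lone peaks (33.5%) and 454 of the others (22.5%). At the wide end, 189 lone peaks (29.2%) exceeded 300 bp, against 971 of the others (48.1%). Peaks over 500 bp made up 24 of the lone peaks (3.71%) and 152 of the others (7.52%). The 647 lone peaks covered 182 kb in all.

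**Figure D1:**
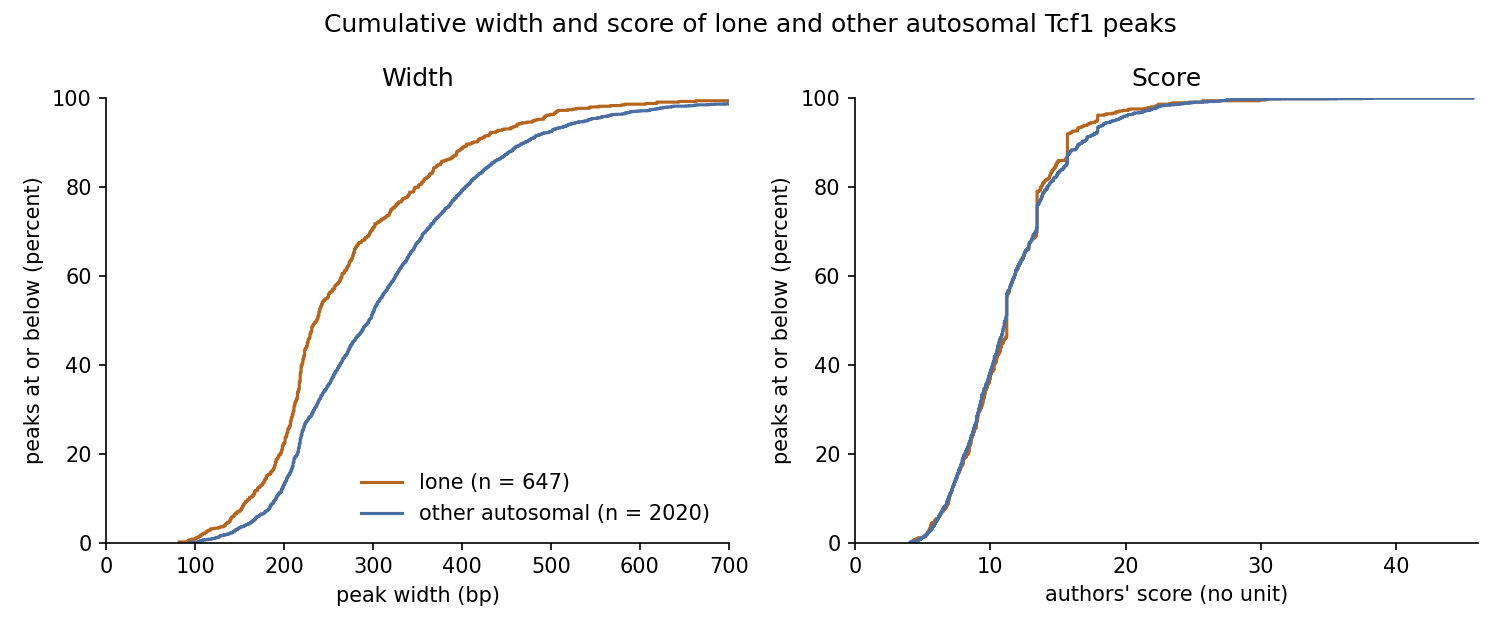
Cumulative percent of peaks by width in bp (left; widths above 700 bp, 4 lone and 26 other peaks, are beyond the axis) and by the authors' score, which has no unit (right), for 647 lone and 2020 other autosomal Tcf1 peaks. The width curve of the lone peaks lies to the left of that of the others, with medians of 237 and 295.5 bp. The score curves lie close together up to a score of about 13.45. Both step upward at 11.21, 13.45 and 15.69, by 8.96, 8.96 and 5.26% of lone peaks and 4.60, 5.05 and 1.93% of the others.

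Scores differed little in the middle and the lower tail and more in the upper tail. The score is the authors' value per peak, and the sources used here do not say what it measures. It is compared only between peaks of this list. The middle 50% ran from 8.80 to 13.45 for lone peaks and from 8.73 to 13.45 for the others. Scores under 6 were held by 34 lone peaks (5.26%) and 96 of the others (4.75%). Scores of 16 or more were held by 50 lone peaks (7.73%, exact binomial 95% interval 5.79 to 10.1%) and 237 of the others (11.7%, interval 10.4 to 13.2%). For scores of 20 or more the counts were 18 (2.78%, interval 1.66 to 4.36%) and 82 (4.06%, interval 3.24 to 5.01%), and these intervals overlap. Of the 100 autosomal peaks with the highest scores, 18 (18%) were lone, and of the top 10, 4 (40%) were. The lone share of all autosomal peaks, 24.3%, lies between these values, so the 2 counts point in opposite directions.

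Median width was lower in each farther class of distance up to 1 to 2 Mb, also below the limit that defines a lone peak. The 387 autosomal peaks with a neighbour within 10 kb had a median width of 332 bp. The median was 309.5 bp for the 454 peaks at 10 to 50 kb, 295 bp for the 263 at 50 to 100 kb, 278.5 bp for the 484 at 100 to 250 kb and 254.5 bp for the 432 at 250 to 500 kb. Among lone peaks it was 249.5 bp (interval 237 to 263 bp) for the 356 at 500 kb to 1 Mb and 227 bp (221 to 236 bp) for the 291 beyond 1 Mb. Within these 291 the order did not continue, with 227 bp for the 225 at 1 to 2 Mb and 229 bp (219 to 268 bp) for the 66 beyond 2 Mb. The class just below the limit (interval 241 to 269 bp) and the class just above it therefore overlap, and no break in width was seen at 500 kb. Peaks over 500 bp wide were 14.5% of the closest class, 3.37% of the class at 500 kb to 1 Mb and 4.12% of that beyond 1 Mb. The median score stayed between 10.74 and 11.21 in all 7 classes.

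**Figure D2:**
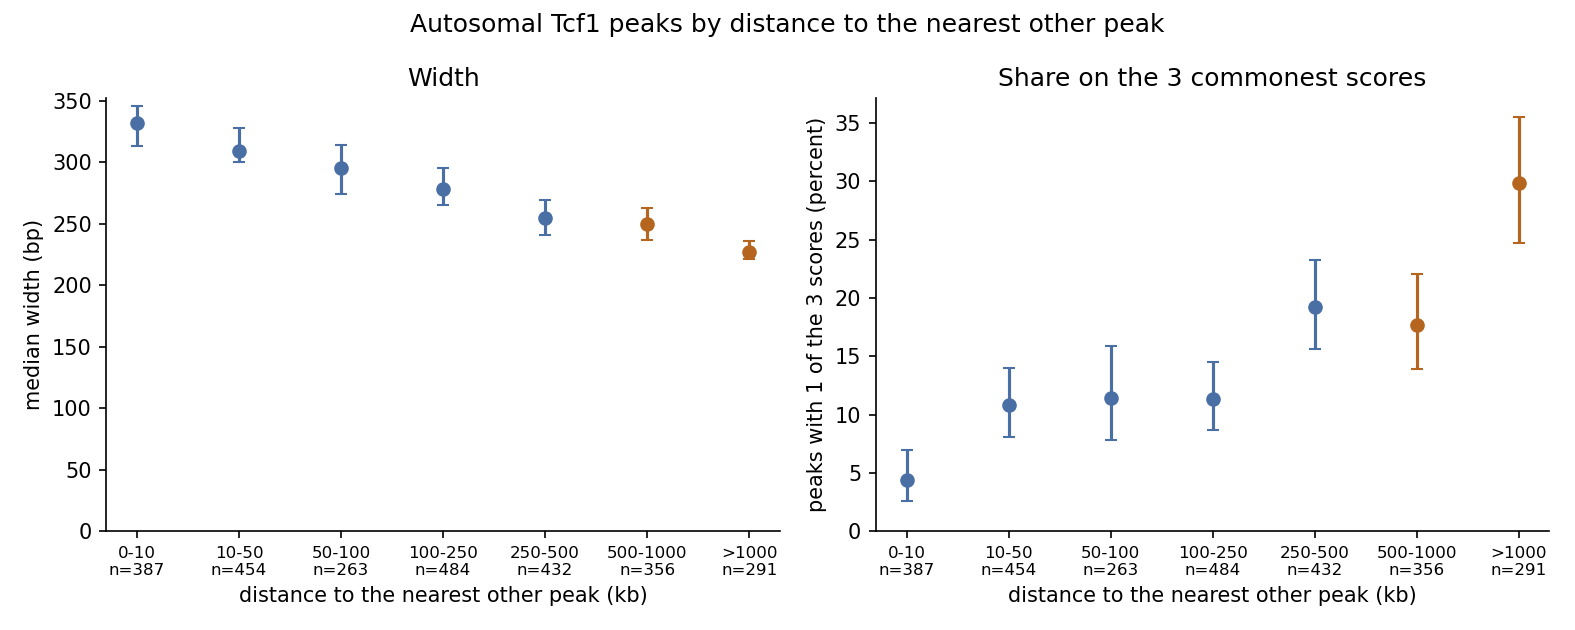
Median width in bp (left) and percent of peaks on the 3 commonest scores (right) of autosomal Tcf1 peaks in 7 classes of distance to the nearest other peak in kb, with the number of peaks in each class. Brown points are lone peaks and blue points the others, and bars are 95% intervals (binomial order statistics for medians, exact binomial for shares) over the peaks of 1 library. Median width goes from 332 bp in the closest class to 227 bp in the farthest, and the share from 4.39% to 29.9%.

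Lone peaks fell on a few exact score values more often than the other peaks did. Scores are written with 2 decimals, and 7 values were each held by 20 or more autosomal peaks. These 7 values took in 176 lone peaks (27.2%, exact binomial 95% interval 23.8 to 30.8%) and 309 of the others (15.3%, interval 13.8 to 16.9%). The difference came from the 3 commonest values, which are 13.45, 11.21 and 15.69. The score 13.45 was held by 58 lone and 102 other peaks, 11.21 by 58 and 93, and 15.69 by 34 and 39. Lone peaks thus made up 36.3%, 38.4% and 46.6% of the peaks at these values, against 24.3% of all autosomal peaks.

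At the other 4 repeated values the lone share was near that of the list. The values 8.97, 11.21, 13.45, 15.69 and 17.93 are evenly spaced, so the commonest scores lie in the same series as 8.97 and 17.93. The reason for this spacing was not tested. Lone peaks were 7 of 27 at 17.93, 7 of 26 at 10.28, 6 of 25 at 8.97 and 6 of 23 at 12.85, or 24.0 to 26.9%. Together these 4 values took in 4.02% of lone peaks and 3.71% of the others. At the opposite extreme, 101 lone peaks (15.6%) and 377 of the others (18.7%) had a score that no other autosomal peak held. Counting every score held by 2 or more peaks as repeated gave 84.4% and 81.3%, a difference of 3.05 percentage points with an interval of -0.41 to 6.29 that includes no difference, so the difference in shares depends on the minimum that defines a repeated score.

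**Figure D3:**
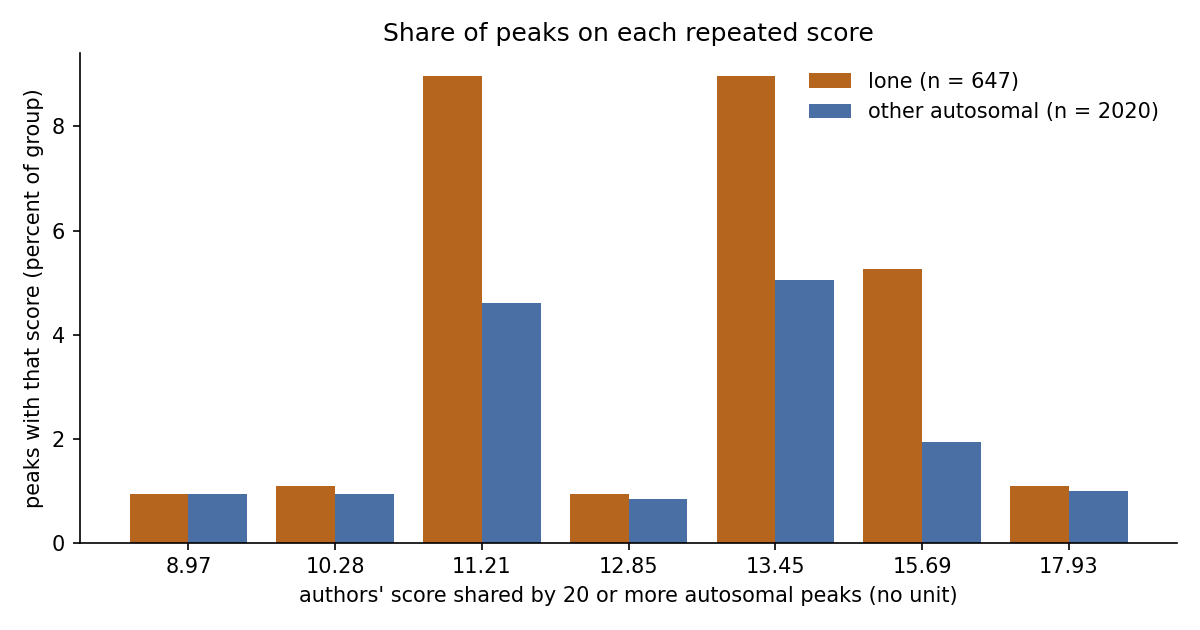
Percent of lone (brown) and other (blue) autosomal Tcf1 peaks at each of the 7 scores shared by 20 or more autosomal peaks. The bars differ at 11.21, 13.45 and 15.69, where 8.96, 8.96 and 5.26% of lone peaks lie against 4.60, 5.05 and 1.93% of the others, and are nearly level at the other 4 scores.

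The share on the 3 commonest scores was highest among the most isolated peaks. It was 17.7% (63 peaks, interval 13.9 to 22.1%) at 500 kb to 1 Mb and 29.9% (87 peaks, interval 24.7 to 35.5%) beyond 1 Mb, against 19.2% of peaks at 250 to 500 kb and 4.39% of those with a neighbour within 10 kb. The class just above the limit was thus not higher than the class just below it, and no break in this share was seen at 500 kb. Within the farthest class the order did not continue. The share was 31.1% for the 225 peaks at 1 to 2 Mb and 25.8% for the 66 peaks beyond 2 Mb, with overlapping intervals of 25.1 to 37.6% and 15.8 to 38.0%.

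Peaks on the 3 commonest scores were uniform in width, whether lone or not. The 150 lone peaks at these scores had a median width of 215.5 bp and a middle 50% of 201 to 223 bp. The 234 other peaks at these scores had a median of 216 bp and a middle 50% of 200.25 to 223 bp. The lone and other peaks therefore did not differ in width here beyond their intervals of 211 to 218 bp and 214 to 218 bp. Score by score, the lone and other medians were 217 and 218 bp at 11.21, 212 and 214 bp at 13.45, and 210.5 and 207 bp at 15.69, where the lone peaks were the wider. Away from these scores the 497 lone peaks had a median of 266 bp (interval 254 to 277 bp) and the 1786 others one of 311 bp (304 to 318 bp). Leaving these scores out, a choice made after seeing the data, reduced the difference in width from -58.5 to -45 bp and turned the difference in median score from 0.10 to -0.47, with medians of 10.10 for lone and 10.57 for other peaks. The 3 scores left out lie at or above the median of both groups and hold 23.2% of lone peaks against 11.6% of the others. The turn in median score therefore follows in part from the choice. The interval of this difference in score, -0.89 to -0.04, covers the peaks of 1 library only and is not a test.

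Within classes of score, lone peaks had the lower median width in all 8 classes examined. In the class from 10 to under 12, which held most peaks, the medians were 223 bp for 158 lone peaks and 260 bp for 477 others. From 12 to under 14 they were 219 bp for 127 and 247 bp for 343, and from 14 to under 16 they were 222.5 bp for 72 and 293 bp for 190. Intervals of the medians did not overlap in these 3 classes or from 8 to under 10, where the medians were 268 bp for 121 and 304 bp for 388. They overlapped in the other 4, from 6 to under 8 (319 bp for 85 and 334 bp for 289), from 16 to under 20 (289 bp for 32 and 336 bp for 155), at 20 or more (351.5 bp for 18 and 394 bp for 82) and under 6, where the medians were 173 bp for 34 (interval 134 to 363 bp) and 376 bp for 96 (333 to 429 bp). The classes from 10 to under 16 each hold 1 of the 3 commonest scores, with 36.7, 45.7 and 47.2% of their lone peaks and 19.5, 29.7 and 20.5% of the others on it, so these classes do not compare peaks of equal score. Without the commonest scores, again a choice made after seeing the data, the medians were 245.5 and 280 bp from 10 to under 12, 258 and 294 bp from 12 to under 14, and 235.5 and 316 bp from 14 to under 16. The lone median was then still the lower in all 8 classes, but the intervals overlapped in 6, all but those from 8 to under 10 and from 10 to under 12.

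**Figure D4:**
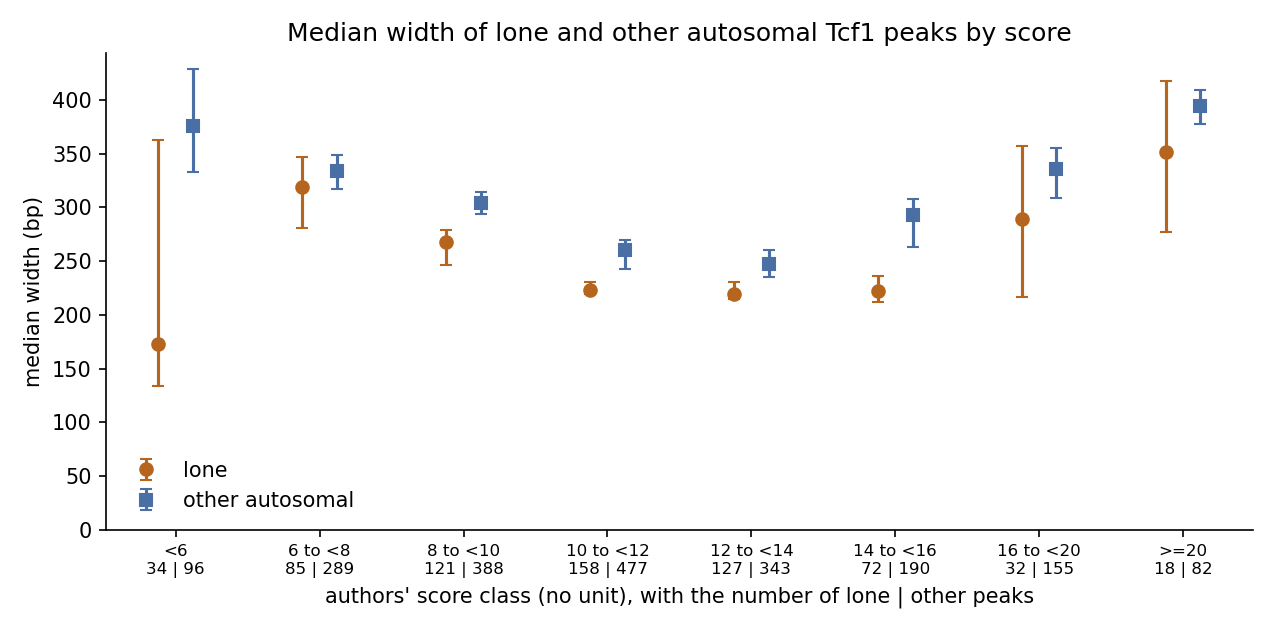
Median width in bp of lone (brown circles) and other (blue squares) autosomal Tcf1 peaks in 8 classes of the authors' score, with the number of lone and other peaks under each class and bars for the 95% interval of the median over peaks of 1 library. The lone median is the lower in each class, and the bars overlap in 4 of the 8, among them the class under 6 (173 against 376 bp), where the lone bar is longest. The 3 classes from 10 to under 16 hold the commonest scores.

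Read by width, the share of lone peaks was lower among wider peaks up to 1000 bp. Lone peaks were 40.5% of the autosomal peaks up to 150 bp, 33.1% of those over 150 and up to 200 bp, and 32.3% of those over 200 and up to 250 bp. They were 22.6% of those over 250 and up to 300 bp, 17.4% of those over 300 and up to 400 bp, 15.5% of those over 400 and up to 500 bp and 13.3% of those over 500 and up to 1000 bp. Over 1000 bp, 2 of 11 were lone (18.2%). In the class over 200 and up to 250 bp, 104 of 217 lone peaks (47.9%) and 155 of 454 others (34.1%) were on the 3 commonest scores, with exact binomial intervals of 41.1 to 54.8% and 29.8 to 38.7%. A higher share on these scores was thus present within this width class too. In the class over 150 and up to 200 bp the shares were 34.7% of 98 and 29.8% of 198, and their intervals overlapped.

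The lone peaks with the highest scores were wider than the usual lone peak, and other peaks with high scores were wide as well. At scores of 20 or more the median width was 351.5 bp for lone and 394 bp for other peaks. The highest repeated score is 17.93, so none of the first 10 lone peaks could be on a repeated score. The first lay at chr2:74911239-74911595, scored 35.13 over 357 bp, and was 707 kb from its nearest neighbour. Next came chr9:88274915-88275387 with a score of 30.46 over 473 bp, 886 kb from another peak, and chr3:107649141-107649439 with 30.35 over 299 bp, 847 kb away. The fourth, chr7:142733932-142734424, scored 29.88 over 493 bp and was 534 kb from another peak. Chromosome 7 also carried chr7:127837486-127837848, which scored 25.70, as did chr13:114979094-114979357. The remaining 4 were chr12:72041772-72042155 (score 24.66), chr14:32246329-32246783 (23.44), chr3:82927938-82928242 (23.25) and chr2:58697002-58697347 (22.41). These 10 were 264 to 493 bp wide with a median of 360 bp, and 1 of them, that on chromosome 14, was more than 1 Mb from another peak.

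The most isolated lone peaks had ordinary scores. A pair on chromosome 16, chr16:79142177-79142396 and chr16:84982857-84983086, were each other's nearest neighbours at 5.84 Mb, with scores of 11.21 and 13.45 and widths of 220 and 230 bp. The first of them was also bounded on its other side by the longest autosomal gap of the list, 13.6 Mb. Chromosome 7 carried the next, chr7:46579790-46580091, which scored 9.59 and was 4.86 Mb from another peak. On chromosome 3 the last and the first peak of the chromosome, chr3:157601614-157601851 (score 10.24) and chr3:5860291-5860873 (score 6.90), were 4.67 and 4.03 Mb from their only neighbours. The peak chr4:70039075-70039436 scored 10.09, with neighbours 3.80 Mb away on one side and 13.0 Mb on the other. A pair on chromosome 18, chr18:24913819-24914037 and chr18:29181592-29181810, shared a width of 219 bp, had scores of 11.21 and 13.45, and lay 3.74 and 3.52 Mb from their nearest peaks. The other 2 were chr14:91310961-91311112 (score 6.97, 3.73 Mb) and chr2:48177801-48178122 (score 7.38, 3.52 Mb). Of these 10 peaks, 4 were on the commonest scores, and their scores ran from 6.90 to 13.45. Whether assembly gaps or sequence to which reads cannot be assigned fill part of these distances was not tested.

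Broad and weak peaks were few among lone and other peaks alike. Widths over 1000 bp were held by 2 lone peaks (0.31%) and 9 of the others (0.45%), and scores under 6 by 5.26% and 4.75%. The widest of all autosomal peaks, at 6120 bp, was lone. The 2 lone intervals over 1000 bp were chr17:39979801-39985920 with 6120 bp and a score of 4.67, and chr14:45290156-45293788 with 3633 bp and a score of 4.36. After them came 767 bp (chr12:75904756-75905522, score 7.34), 712 bp (chr8:71996183-71996894, score 5.61) and 663 bp (chr12:68160074-68160736, score 6.50). The lowest lone scores were 4.15 at chr11:88942955-88943449, 4.23 at chr4:23299427-23299526 and 4.27 at chr1:46789420-46789501, followed by the broad chromosome 14 interval and by chr10:89194621-89195112 with 4.43. Of these 5, those on chromosomes 4 and 1 were 100 and 82 bp wide, and the latter is the narrowest lone peak. Control signal at the broad intervals was not analysed here.

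The members nearest the limit and the peaks just beyond it overlapped in width and score, 198 to 398 bp and 6.36 to 15.58 inside against 212 to 338 bp and 6.79 to 11.21 outside. Just inside it were chr7:23225391-23225588 (500.016 kb from its neighbour, 198 bp, score 11.21) and a pair on chromosome 8 that are each other's neighbours at 500.631 kb, chr8:15018894-15019119 (226 bp, score 15.58) and chr8:15519751-15520148 (398 bp, score 6.36). Just outside it were a pair on chromosome 5 at 499.132 kb from each other, chr5:44339590-44339927 (338 bp, score 6.79) and chr5:44839060-44839280 (221 bp, score 11.21), and chr9:59725300-59725511 at 496.985 kb (212 bp, score 11.21).

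Most lone peaks bordered another lone peak. Of the 647, 496 (76.7%) had a lone peak as the next peak on at least 1 side, 164 of these on both sides, and 151 stood between peaks that were not lone or at a chromosome's end. Neighbouring lone peaks share the gap between them, so they are not independent. The peak next to a lone peak is itself lone whenever its own far gap also exceeds 500 kb. Of all autosomal gaps, 46.5% did so, and the share of bordering lone peaks therefore follows in part from the rule. The 46.5% is a rate for a single gap, whereas the 76.7% counts a lone peak on either side. The distance between these percentages is therefore no measure of an excess, and how much follows from the rule was not calculated. Lone peaks formed 317 unbroken runs, of which 166 held 2 or more peaks and 12 held 6 or more. The longest run was 10 lone peaks over 15.6 Mb of chromosome 15, between 42902380 and 58528853, with scores of 7.07 to 21.42 and a median width of 252 bp. A run of 9 covered 21.8 Mb of chromosome 8, between 50224683 and 71996894, with scores of 5.61 to 19.28 and a median width of 250 bp. A run of 7 on chromosome 3, between 39573199 and 50051696, had scores of 11.21 to 17.93 and widths of 137 to 240 bp, and 4 of its peaks were on the commonest scores. These runs were chosen after their lengths were seen.

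Long distances between peaks made up most of the autosomal span. Of 2648 gaps between neighbouring autosomal peaks, 1232 (46.5%) were over 500 kb, and they held 90.3% of the total gap length of 2377 Mb. Among these, 289 had no lone peak on either side, since both bordering peaks had a closer neighbour elsewhere. The median distance from a lone peak to the farther of its neighbours was 2.06 Mb, against a median of 934 kb to the nearer one. Lone peaks were 21 of the 38 first or last peaks of a chromosome, which have a neighbour on 1 side only. Such a peak is lone whenever that 1 gap exceeds 500 kb, as 46.5% of all gaps did. Among all autosomal peaks 24.3% were lone, so the count at the ends follows in part from the rule.

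Every autosome carried lone peaks, from 18 on chromosome 19 to 54 on chromosome 2. Their share of a chromosome's peaks ran from 17.3% on chromosome 11 (27 of 156, exact binomial 95% interval 11.7 to 24.2%) to 31.6% on chromosome 18 (25 of 79, interval 21.6 to 43.1%), with a median of 26.0%. Chromosomes 4 (18.2%), 17 (18.7%), 16 (19.1%) and 9 (19.2%) were also low, and chromosomes 14 (29.9%), 8 (29.3%) and 10 (27.8%) high. The intervals of all 19 chromosomes overlapped that of the whole list. Chromosomes with dense peaks leave less room for lone peaks by the rule itself: chromosome 9 had 1.43 peaks per Mb between its first and last peak and chromosome 11 had 1.34, while chromosomes 8 and 18, with high lone shares, had 0.909 and 0.910. This order was loose: chromosome 4 had 0.971 peaks per Mb and a low lone share, chromosome 10 had 1.20 and a high one, and chromosome 19, as dense as chromosome 11 at 1.34, had a lone share of 23.4%. Per Mb, lone peaks were fewest on chromosome 4 (0.177) and most frequent on chromosomes 14 and 10 (0.334 each).

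The narrower width of lone peaks was present on nearly every autosome. The lone median was below that of the other peaks on 18 of 19 chromosomes, with lone medians from 220 to 280 bp and other medians from 250 to 324 bp. The distances were widest on chromosome 11 (227 against 321 bp) and chromosome 3 (221.5 against 301.5 bp). Chromosome 7 was nearly level (272.5 against 275 bp), and chromosome 19, with 18 lone peaks, was the exception (278.5 against 274 bp). The share on the 3 commonest scores was higher among lone peaks on 18 of 19 chromosomes, from 11.1% on chromosome 19 to 35.0% on chromosome 3, against 3.88 to 23.4% of the others. The exception was chromosome 7, with 19.0% of lone peaks and 19.8% of the others. Median scores showed no such order: the lone median was higher on 11 chromosomes, lower on 7 and equal on 1. Chromosomes of 1 library are not replicates, and these counts are a description.

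**Figure D5:**
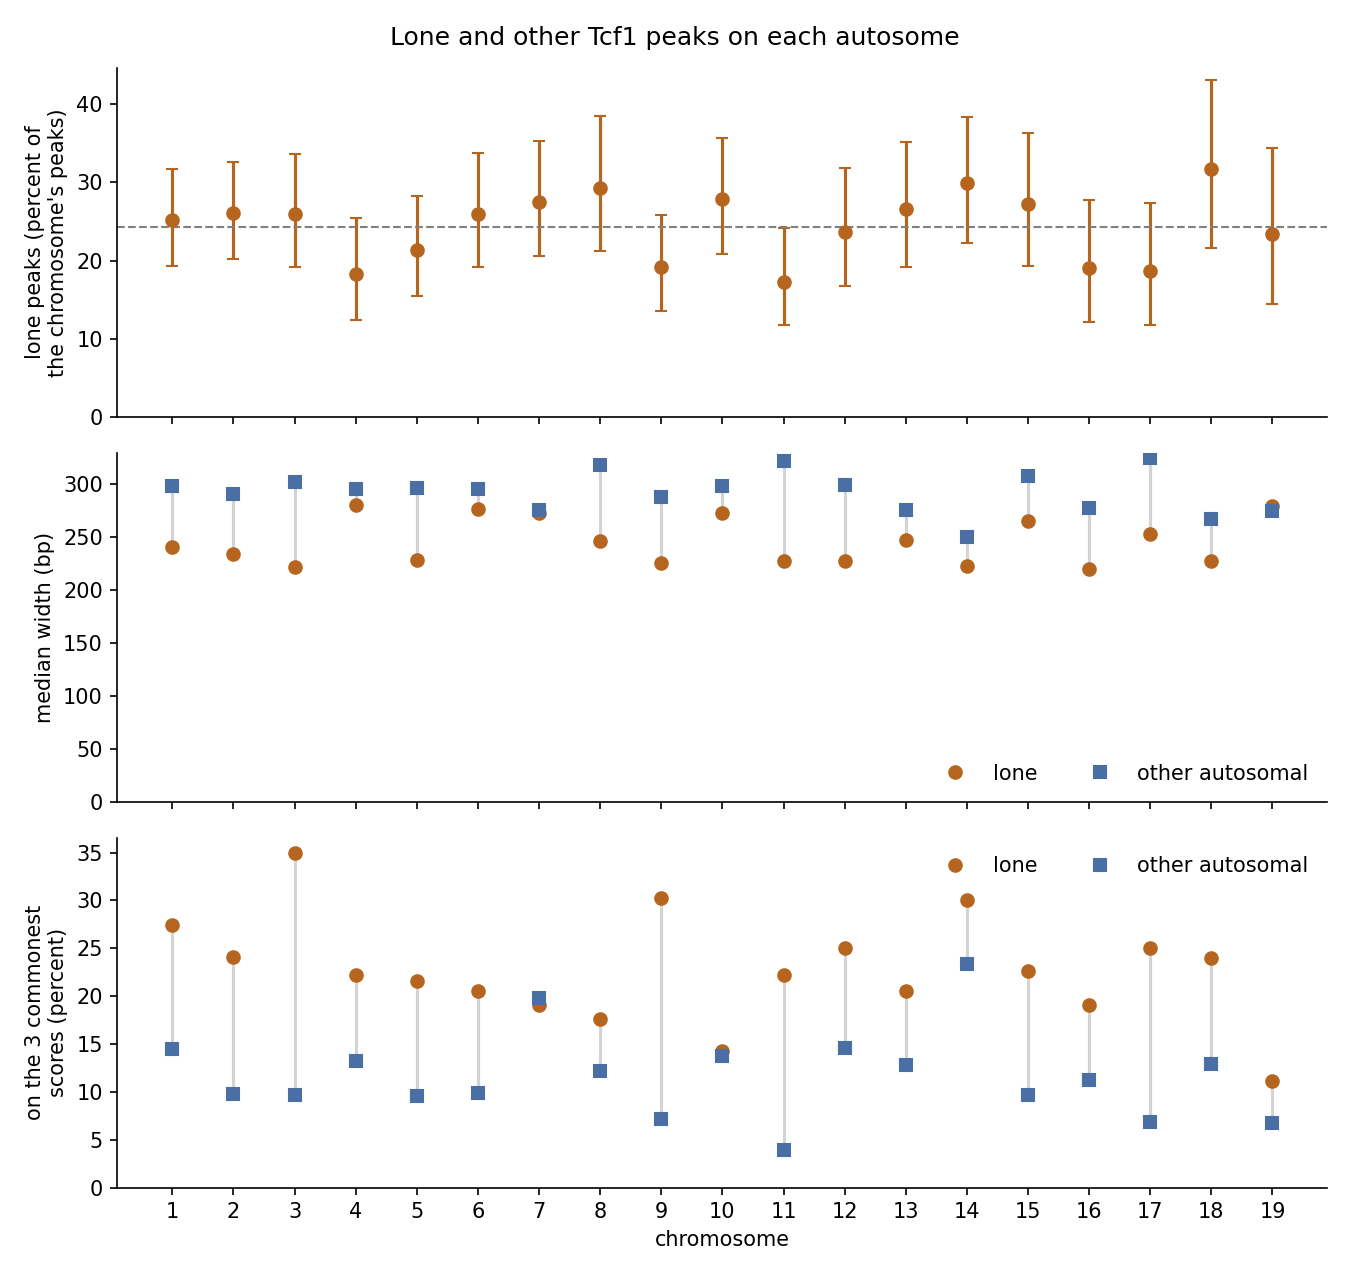
Percent of each autosome's Tcf1 peaks that were lone (top, bars are exact binomial 95% intervals and the dashed line is the 24.3% of all autosomal peaks), median width in bp (middle) and percent on the 3 commonest scores (bottom), with lone peaks as brown circles and the other peaks as blue squares. The lone median width is the lower on 18 of 19 autosomes and the lone share on the commonest scores the higher on 18 of 19.

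Along the chromosomes lone peaks were spread more evenly than the other peaks, which were most numerous toward the far end. When the stretch between the first and last peak of each chromosome was divided into 5 equal stretches, in the order of mm9 coordinates, lone peaks numbered 133, 151, 116, 123 and 124. The other peaks numbered 339, 344, 418, 388 and 531. Lone peaks therefore made up 30.5% of the peaks in the second stretch and 18.9% of those in the last. The rule itself keeps lone peaks from crowding where peaks are dense, so their evenness follows in part from it.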

How the data were processed

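Crosslinked chromatin was sonicated before ChIP, and library fragments were sized on a gel, per the labels' protocols. Tools named without settings in the submitters' processing notes are MACS 1.4.1, Bowtie 0.12.5 and CASAVA 1.8, with mm9 as the build. The authors deposited 1 interval list with a score per peak; its scale, its threshold, the treatment of duplicate and multiply mapped reads and the use of the control library are not given in the sources used here. A caller's settings, such as how neighbouring enrichment is merged, can set widths and distances.

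The members and all lists were chosen with earlier results of these data known. Distances ran from edge to edge. A score was called repeated when 20 or more autosomal peaks held it. Medians have 95% binomial order-statistic intervals and shares exact (Clopper-Pearson) ones. The interval of a difference joins the arms of both groups' intervals, as the root of the sum of their squares. No test was made over peaks. Named peaks are the 10 highest-scoring and 10 most isolated members, the 5 widest, the 5 lowest-scoring and 3 on each side of the limit; runs were added. Positions count from 1. The classing was tested on 20 simulated lists, and all peaks were classed rightly in 20. No simulated peak had a nearest distance close to the limit, so this did not test the classing of peaks near it. Planned work on gene starts, motifs, gene lists and sequences needs mm9 annotation or sequence and was not run; the gene tables used here are for GRCm38.p6. Calculations ran in Python 3.11.15 with pandas 2.3.3, SciPy 1.17.1 and NumPy 2.4.6, and plots in Matplotlib 3.10.9.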

Additional observations from a re-analysis of the deposited data

How the results depend on the processing

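Of 62 alternatives to 7 results, 45 stayed within 1.5 times the count or within the interval of the reported value. Of these, 4 could not move, since counting runs within 10 kb once leaves lone peaks untouched. Measuring from midpoint to midpoint changes distances little against a limit of 500 kb. It left all 7 results at the reported values, and these too are among the 45. Of the 62, 2 pairs are the same by construction, since the scores held by 50 or more peaks are the 3 commonest. Lone peaks were narrower in all 9 alternatives for the difference in width (-61 to -30 bp), and their share on repeated scores was the higher value in all 11 (3.05 to 17.0 percentage points), though at 3.05 points the interval (-0.41 to 6.29) includes 0. A limit of 250 kb gave 1079 lone peaks. A limit of 1 Mb gave 291, with a median width of 227 bp, 33.3% on repeated scores and a difference of 17.0 points. Among peaks at or above the median score, the lone median score was 13.45 and 40.4% were on repeated scores, which follows in part from that choice. Calling a score repeated from 2 peaks gave 84.4% and a difference of 3.05 points; calling it so from 50, or using the 3 commonest scores, gave 23.2%. Alternatives added after seeing the data were those without the 3 commonest scores (median width 266 bp, median score 10.10, differences of -45 bp and -0.47) and those against the 916 other peaks with no peak within 100 kb (differences of -30 bp and 6.90 points). Leaving out scores at or above the lone median lowers that median in part by construction. Beyond that, the cause of these shifts was not tested. Alternatives for gene starts and motifs were not run. No paired analysis was possible because each serum has 1 library. Depth is unknown, so a place without a listed peak is not shown to lack Tcf1.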
